A study of Homo sapiens with 6 samples.

Results

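Antisense long non-coding RNA genes are genes without a coding product that are named for a coding gene on the opposite DNA strand. On the arrays analysed here, 489 of 14884 genes with a single gene symbol had a symbol ending in -AS or -AS and a number. The 176 of them with a mean log2 value of 4.5 or more over all 6 arrays are described below, and the other 313 were dimmer. Where several probes carried one symbol, the probe with the highest 6-array mean stood for the gene, and 160 of the 176 genes had 1 probe only. The chosen genes spanned 6-array means from 4.51 (SHANK2-AS1) to 8.73 (TRG-AS1), against a median of 4.07 over all rows of the table. The genes were selected on these 6-array means, so their levels are a description and were not tested. RefSeq classed 173 of the 176 as long non-coding RNA and 3 as antisense RNA. A value was measured for the coding gene in the name, called the coding partner here, of 114 of the 176 genes.

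The cells were THP-1, an established human acute myeloid leukaemia line of monocytic character, carrying the lentiviral vector psi-LVRU6GP. In the RKIP shRNA group the vector expressed a short hairpin RNA against RKIP, the Raf kinase inhibitor protein encoded by PEBP1, and in the control group it was empty. Both groups were kept under 1.5 µg/mL puromycin, and 250 ng of total RNA per sample went onto Affymetrix Human Gene 2.0 ST arrays, 3 arrays per group. The comparison asked which transcripts differ after RKIP knockdown in these cells. Since the control vector carried no hairpin, effects of expressing a hairpin cannot be told apart from those of RKIP loss. The labels call the arrays of a group biological replicates without saying whether separate transductions were made, so a p-value reflects array-to-array spread that may be technical, and the number of arrays limits the precision.

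Antisense transcripts are often made by RNA polymerase II from start sites that face a coding gene's promoter or lie inside the coding gene. Many are short-lived, because early termination and the nuclear RNA exosome remove them, whereas others are spliced and stable. Single antisense RNAs have been described that act on their neighbour through shared promoter DNA, through chromatin or by pairing with its mRNA, and many have no described function.

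PEBP1, the knockdown target, read 9.52, 9.77 and 9.75 in the control arrays and 8.25, 8.18 and 8.24 in the RKIP shRNA arrays, and every RKIP shRNA array lay below every control array. Its log2 change was -1.46 with a standard error of 0.09 (adjusted p = 0.00023 by limma), so 36.4% of the control signal remained. Array values are given in replicate order throughout, and all values, changes and standard errors (SE) are on the log2 scale unless written as folds. Markers of cell types are given beside it. Of 21 monocytic markers 12 were measured, of which 6 rose (LYZ, TYROBP, TLR4, SPI1, CD68 and MPO) and 1 fell (CD4), by the limma test used throughout, while CD14, CD36, CSF1R, TLR2 and IRF8 did not pass it. Over all genes 10.0% were called higher and 10.2% lower, and over protein-coding genes at 4.5 or more 17.4% and 15.6%. The mean level of those 12 markers was 6.29 to 6.37 in the control arrays and 6.888 to 6.996 in the RKIP shRNA arrays. MPO and the myeloid factor SPI1 were bright in both groups, while CD14, CD36 and IRF8 had group means below the table's median in both. The marker lists of other cell types were measured only in part. For 7 of 10 T cell markers the mean level was 4.34 to 4.49 in control and 4.498 to 4.594 in RKIP shRNA arrays (CD5 rose). It was 5.09 to 5.16 and 4.92 to 4.99 for 3 of 7 B cell markers (VPREB3 fell). For 2 of 8 erythroid markers it was 5.62 to 5.81 and 5.66 to 5.91 (no call). For 7 of 8 epithelial markers it was 4.49 to 4.64 and 4.52 to 4.57 (KRT18 fell). For 4 of 8 fibroblast markers it was 3.20 to 3.25 and 3.43 to 3.55 (FN1 rose). Single markers were brighter than these means, such as KRT18, PAX5 and EPOR at 6-array means of 8.11, 6.71 and 6.42. The part of the marker shifts in the results below was not tested.

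The sequences at the starts of 5 genes show the arrangements that recur in the results. They are 300-base windows from RefSeq (assembly GRCh38.p14), reaching from 250 bases before to 50 bases after the gene's start, printed 5′ to 3′ on the gene's own strand. Such a window was found by symbol for 144 of the 176 genes. DICER1-AS1, STX18-AS1 and HHIP-AS1 start back to back with their partners: capitals mark the run that is also found, as its reverse complement, in the partner's own start window. DICER1-AS1 lies at chr14:95157438-95157737 on the plus strand and shares 258 bases with the window of DICER1. STX18-AS1 lies at chr4:4541881-4542180 on the plus strand and shares 182 bases with STX18, and HHIP-AS1 lies at chr4:144645970-144646269 on the minus strand and shares 236 bases with HHIP.
DICER1-AS1: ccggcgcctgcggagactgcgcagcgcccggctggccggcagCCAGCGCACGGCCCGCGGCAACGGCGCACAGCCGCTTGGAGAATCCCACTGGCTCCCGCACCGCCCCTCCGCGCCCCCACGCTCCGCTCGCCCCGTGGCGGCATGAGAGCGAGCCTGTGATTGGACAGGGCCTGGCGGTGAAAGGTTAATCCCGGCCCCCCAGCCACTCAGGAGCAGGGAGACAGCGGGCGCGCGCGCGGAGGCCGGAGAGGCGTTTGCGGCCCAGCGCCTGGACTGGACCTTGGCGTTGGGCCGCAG
STX18-AS1: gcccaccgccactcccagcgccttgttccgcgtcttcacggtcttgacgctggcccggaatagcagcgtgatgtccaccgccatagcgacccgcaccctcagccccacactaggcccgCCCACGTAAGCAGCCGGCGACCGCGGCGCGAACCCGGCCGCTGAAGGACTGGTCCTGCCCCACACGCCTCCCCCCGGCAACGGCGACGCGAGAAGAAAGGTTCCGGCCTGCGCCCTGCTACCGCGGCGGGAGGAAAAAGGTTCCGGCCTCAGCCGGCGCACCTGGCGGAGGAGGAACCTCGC
HHIP-AS1: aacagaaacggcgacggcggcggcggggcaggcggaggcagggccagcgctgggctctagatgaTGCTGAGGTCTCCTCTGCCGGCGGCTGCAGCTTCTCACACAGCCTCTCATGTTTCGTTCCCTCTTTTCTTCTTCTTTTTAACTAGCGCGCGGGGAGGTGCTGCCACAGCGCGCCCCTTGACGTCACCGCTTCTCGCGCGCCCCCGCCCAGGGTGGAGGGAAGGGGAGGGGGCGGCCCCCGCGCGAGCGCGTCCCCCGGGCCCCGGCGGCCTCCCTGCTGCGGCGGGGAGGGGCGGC
VLDLR-AS1 (chr9:2622324-2622623, minus strand) and PCED1B-AS1 (chr12:47216394-47216693, minus strand) are the genes with the largest fall and the largest rise. Their windows share no such run with the partner's window, although the gene spans overlap on opposite strands. Capitals mark matches on either strand to TATAAA (the TATA box), to CCAAT (the binding letters of NF-Y), to GGGCGG (a GC box bound by SP1) and to CCGGAA (a core bound by ETS factors). Matches of different motifs were allowed to overlap.
VLDLR-AS1: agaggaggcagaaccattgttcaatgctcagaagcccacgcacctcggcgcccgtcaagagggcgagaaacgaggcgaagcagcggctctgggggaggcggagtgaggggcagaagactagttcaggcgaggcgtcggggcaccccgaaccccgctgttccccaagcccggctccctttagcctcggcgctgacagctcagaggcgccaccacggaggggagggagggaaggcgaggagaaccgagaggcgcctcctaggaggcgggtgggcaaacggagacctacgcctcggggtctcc
PCED1B-AS1: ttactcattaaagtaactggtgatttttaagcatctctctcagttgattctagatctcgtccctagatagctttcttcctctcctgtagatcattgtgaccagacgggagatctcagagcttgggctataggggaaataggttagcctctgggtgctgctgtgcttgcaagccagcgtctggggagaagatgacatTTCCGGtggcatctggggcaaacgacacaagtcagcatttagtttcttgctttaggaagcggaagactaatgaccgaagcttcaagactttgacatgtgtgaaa
The window of VLDLR-AS1 held none of these letters, and that of PCED1B-AS1 held 1 match, CCGGAA on the other strand. Among the 144 windows TATAAA was found in 6.94%, CCAAT in 36.8%, GGGCGG in 54.9% and CCGGAA in 19.4%. The shares over all 27305 RefSeq windows of that length were 12.0%, 35.7%, 44.6% and 17.6%. The median GC content was 63.7% in the windows of the antisense genes and 58.3% in all windows. These matches describe letters only and say nothing about factors bound there.

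Antisense genes were lower in RKIP shRNA cells more often than they were higher. Of the 176 genes 36 fell, 11 rose and 129 did not pass the test (limma, Benjamini-Hochberg adjusted p under 0.05 over all 14884 genes). The called share was 26.7%, against 20.2% of all genes and 31.7% of all genes at 4.5 or more. At that limit 32.9% of protein-coding and 28.4% of other long non-coding genes were called. These sets share the limit but not the brightness. The median 6-array mean was 5.37 for the antisense genes and 7.07 for all genes at 4.5 or more. It was 7.25 for protein-coding and 5.69 for other long non-coding genes at that limit, so the shares are not matched for brightness. The shares by direction were 20.5% lower and 6.25% higher, against 10.2% and 10.0% of all genes and 15.8% and 15.9% of all genes at 4.5 or more. Protein-coding genes at 4.5 or more were called lower in 15.6% and higher in 17.4% of 7642 cases. Other long non-coding RNA genes at 4.5 or more were called lower in 24.1% and higher in 4.28% of 257 cases. Lower calls thus outnumbered higher ones among non-coding genes with other names too. The median log2 change was -0.06 over the 176 antisense genes, -0.09 over the other long non-coding genes and 0.02 over all genes at 4.5 or more. In bulk RNA, fewer cells of a type and less RNA per cell cannot be told apart.

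The count of higher genes depended on single arrays. It was 7 without RKIP shRNA replicate 1, 6 without RKIP shRNA replicate 2 and 9 without RKIP shRNA replicate 3. It was 7 without control replicate 1 and 6 without either control replicate 2 or control replicate 3. PCED1B-AS1, VPS9D1-AS1, NPPA-AS1 and PCNA-AS1 were called higher in each of these 6 fits. The 176 genes stayed those chosen on all 6 arrays. PCED1B-AS1 passed the limit of 4.5 only through its RKIP shRNA arrays, so its calls are a description. The count of lower genes ranged from 26 to 31 over the same fits, and 29 of all 47 called genes were called in every one.

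Most changes were small: only 5 genes fell and 1 rose by 2-fold or more. Calls were also more frequent among bright genes. In the dimmest 59 genes 4 fell and 2 rose, in the middle 58 there were 12 and 1, and in the brightest 59 there were 20 and 8. The groups did not overlap in 79 of the 176 genes (44.9%), against 37.9% of all genes and 55.3% of all genes at 4.5 or more. Among the 168 genes whose control and RKIP shRNA means both reached 4.5, 34 fell and 10 rose.

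**Figure D1:**
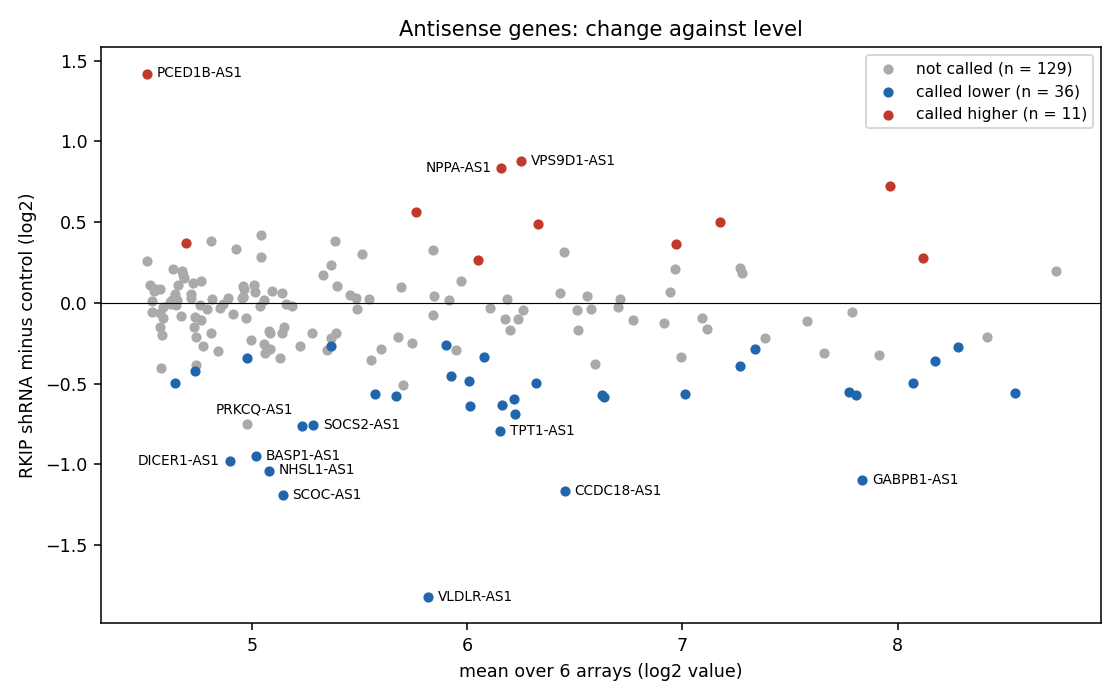
Each of the 176 antisense genes by its mean log2 value over the 6 arrays (x axis) and its log2 change, RKIP shRNA minus control (y axis); blue points were called lower (36), red points higher (11) and grey points not called (129), and called genes past a change of about 0.75 are named. VLDLR-AS1 is lowest at -1.82 and PCED1B-AS1 highest at 1.42, and most blue and red points lie at bright levels.

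**Figure D2:**
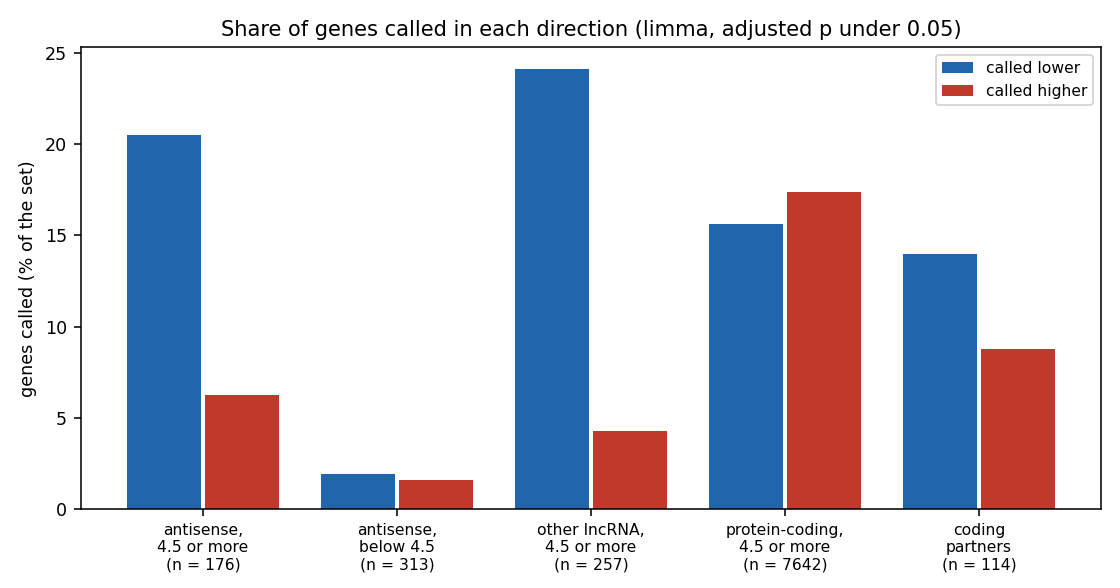
Percent of genes called lower (blue) and higher (red) by limma in 5 sets, with the number of genes under each. Antisense genes at 4.5 or more show 20.5% lower and 6.25% higher, other long non-coding genes 24.1% and 4.28%, and protein-coding genes 15.6% and 17.4%.

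None of the 5 brightest antisense genes was called higher, although 8 of the brightest 59 were. TRG-AS1, named for the T cell receptor gamma locus, read 8.65, 8.72 and 8.54 in the control arrays and 8.94, 8.86 and 8.70 in the RKIP shRNA arrays. Its groups overlapped and its change of 0.20 did not pass the test (limma adjusted p = 0.18). EPB41L4A-AS1, at a 6-array mean of 8.55, read 8.96, 8.77 and 8.75 in the control arrays and 8.23, 8.27 and 8.31 in the RKIP shRNA arrays. It fell by 0.56 (adjusted p = 0.004), with no overlap between the groups. ZEB2-AS1, whose partner ZEB2 is a repressor of E-cadherin, read 8.42, 8.62 and 8.52 in the control arrays and 8.37, 8.26 and 8.30 in the RKIP shRNA arrays. Its change of -0.21 missed the threshold (adjusted p = 0.11) although the groups did not overlap. PSMA3-AS1 and NUTM2A-AS1, at means of 8.28 and 8.17, fell by 0.28 and 0.36 (adjusted p = 0.032 and 0.024). The call of NUTM2A-AS1 was lost without replicate 1 or 3 of either group, with adjusted p values up to 0.085, and that of PSMA3-AS1 on leaving out any array but RKIP shRNA replicate 2 (up to 0.11).

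The limit of 4.5 cut through called genes. Just inside stood SHANK2-AS1, with control and RKIP shRNA means of 4.38 ± 0.11 and 4.64 ± 0.12 (SD, n = 3 each), and PCED1B-AS1, with 3.80 ± 0.24 and 5.22 ± 0.05. Just outside stood RASSF8-AS1, with 4.75 ± 0.10 and 4.25 ± 0.18, and BOK-AS1, with 4.43 ± 0.22 and 4.57 ± 0.04. PCED1B-AS1 therefore entered through its RKIP shRNA arrays. DICER1-AS1 (5.39 ± 0.11 and 4.41 ± 0.11) and ZMIZ1-AS1 (4.89 ± 0.12 and 4.39 ± 0.27) entered through their control arrays. The brighter group of such genes lies above the limit by the way they were chosen, so their calls are given as a description.

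The results for single genes follow the known roles of the coding partners, an order that serves the text and was not tested. Every one of the 47 called genes had groups that did not overlap. Among partners that work at membranes and in trafficking, the largest difference was at the VLDLR locus, which encodes the very low density lipoprotein receptor. VLDLR-AS1 read 6.75, 6.78 and 6.67 in the control arrays and 4.85, 5.06 and 4.82 in the RKIP shRNA arrays. All RKIP shRNA arrays lay far below all control arrays. It fell by 1.82 (SE 0.09, limma adjusted p = 0.00013), or 3.54-fold, and a second, dimmer probe fell by 1.16. SCOC-AS1 is named for a coiled-coil protein of the Golgi that takes part in autophagy. It read 5.96, 5.64 and 5.61 in the control arrays and 4.88, 4.28 and 4.49 in the RKIP shRNA arrays. The control arrays were all higher, though the RKIP shRNA arrays were spread widely. It fell by 1.19 (SE 0.17, adjusted p = 0.0037).

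STX18-AS1 shares its start region with STX18, a syntaxin of the endoplasmic reticulum. It read 6.60, 6.44 and 6.50 in the control arrays and 6.05, 5.75 and 5.95 in the RKIP shRNA arrays. The RKIP shRNA arrays were the lower ones without overlap, and it fell by 0.59 (SE 0.10, adjusted p = 0.0062). A second probe with a mean of 3.37, below the median of all rows, changed by 0.10 and was not called, and with the mean of both probes the call of STX18-AS1 was lost (change -0.25, adjusted p = 0.24). SPART-AS1, named for spartin, a protein of lipid droplets and endosomes, read 6.45, 6.33 and 6.20 in the control arrays and 5.77, 5.51 and 5.80 in the RKIP shRNA arrays. It fell by 0.64 (SE 0.11, adjusted p = 0.0069), with all RKIP shRNA arrays below the controls. VPS9D1-AS1 is named for a protein with a VPS9 domain, a fold that activates RAB5 GTPases. It read 5.64, 5.93 and 5.88 in the control arrays and 6.79, 6.64 and 6.64 in the RKIP shRNA arrays. The RKIP shRNA arrays were the higher ones without overlap, and it rose by 0.88 (SE 0.10, adjusted p = 0.0016), or 1.84-fold. BACE1-AS, antisense to the beta-secretase gene, fell by 0.50 (adjusted p = 0.0064) from a bright control mean of 8.32 ± 0.08.

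Several called genes neighbour factors that act on RNA or protein synthesis. DICER1 encodes the nuclease that cuts microRNA precursors. DICER1-AS1 read 5.51, 5.36 and 5.30 in the control arrays and 4.53, 4.36 and 4.33 in the RKIP shRNA arrays. The groups were apart, and it fell by 0.98 from control values that carried it over the limit of 4.5 (SE 0.09, adjusted p = 0.00081). DICER1 itself has no value under a single symbol here. ZSWIM8, a ubiquitin ligase subunit, acts in the decay of microRNAs directed by their targets. ZSWIM8-AS1 read 6.53, 6.47 and 6.43 in the control arrays and 6.03, 5.87 and 5.63 in the RKIP shRNA arrays. It fell by 0.63 (SE 0.11, adjusted p = 0.0075), and the third RKIP shRNA array was the lowest. PDCD4 is an inhibitor of the translation helicase eIF4A. PDCD4-AS1 read 6.89, 7.18 and 6.70 in the control arrays and 6.58, 6.19 and 6.27 in the RKIP shRNA arrays. Its groups came close without overlapping, and it fell by 0.58 (SE 0.15, adjusted p = 0.035). The call of PDCD4-AS1 was lost in 4 of the 6 fits that left out 1 array, namely without RKIP shRNA replicate 2, RKIP shRNA replicate 3, control replicate 1 or control replicate 2, with adjusted p values up to 0.10. A second PDCD4-AS1 probe with a mean of 3.04 changed by -0.10 and was not called. The call was also lost with the mean of both probes (change -0.34, adjusted p = 0.15), with array weights (0.053), over all rows (0.081) and with the ordinary t statistic (0.13). TPT1 encodes the abundant translationally controlled tumour protein. TPT1-AS1 read 6.47, 6.67 and 6.51 in the control arrays and 5.90, 5.55 and 5.81 in the RKIP shRNA arrays. It fell by 0.79 (SE 0.11, adjusted p = 0.0033), again with the groups apart. RBM26-AS1, next to a zinc finger gene of nuclear RNA decay, fell by 0.50 (adjusted p = 0.008). Its second probe, with a mean of 3.41, changed by 0.02 and was not called, and with the mean of both probes the call of RBM26-AS1 was lost (change -0.24, adjusted p = 0.14).

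A further set neighbours genes of transcription, chromatin and the cell cycle. GABPB1 encodes a subunit of the ETS-family factor GABP. GABPB1-AS1 read 8.37, 8.34 and 8.43 in the control arrays and 7.25, 7.29 and 7.33 in the RKIP shRNA arrays. The spread within each group was small beside the gap, and it fell by 1.10 (SE 0.07, adjusted p = 0.00023), or 2.14-fold. CDKN2B-AS1, also known as ANRIL, spans the locus of the cell cycle inhibitors CDKN2A and CDKN2B. It read 6.64, 6.65 and 6.41 in the control arrays and 5.84, 5.88 and 5.92 in the RKIP shRNA arrays. It fell by 0.69 (SE 0.09, adjusted p = 0.0023), and no control array reached the RKIP shRNA range. PCNA is the sliding clamp of DNA replication. PCNA-AS1 read 7.77, 7.58 and 7.46 in the control arrays and 8.35, 8.31 and 8.32 in the RKIP shRNA arrays. It rose by 0.72 (SE 0.09, adjusted p = 0.0025), with 3 nearly equal RKIP shRNA arrays. BASP1 encodes a membrane-associated protein that can act as a corepressor with WT1. BASP1-AS1 read 5.67, 5.32 and 5.48 in the control arrays and 4.67, 4.53 and 4.43 in the RKIP shRNA arrays. It fell by 0.95 (SE 0.11, adjusted p = 0.0019). WT1-AS itself fell by 0.56 (adjusted p = 0.017), a call lost in 4 of the 6 fits that left out 1 array: without RKIP shRNA replicate 1, RKIP shRNA replicate 3, control replicate 1 or control replicate 2, with adjusted p values up to 0.061.

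Signalling genes make up the next set. PRKCQ encodes protein kinase C theta. PRKCQ-AS1 read 5.61, 5.71 and 5.53 in the control arrays and 5.09, 4.60 and 4.87 in the RKIP shRNA arrays. It fell by 0.76 (SE 0.13, adjusted p = 0.0071), with the second RKIP shRNA array lowest. SOCS2 is a feedback inhibitor of cytokine receptor signalling. SOCS2-AS1 read 5.76, 5.69 and 5.54 in the control arrays and 4.85, 4.93 and 4.94 in the RKIP shRNA arrays. It fell by 0.76 (SE 0.08, adjusted p = 0.0013), with a tight RKIP shRNA group. MYLK encodes myosin light chain kinase. MYLK-AS1 read 5.83, 6.01 and 6.03 in the control arrays and 5.23, 5.41 and 5.52 in the RKIP shRNA arrays. It fell by 0.57 (SE 0.10, adjusted p = 0.0082), with no overlap. NPPA encodes atrial natriuretic peptide. NPPA-AS1 read 5.84, 5.85 and 5.54 in the control arrays and 6.51, 6.57 and 6.65 in the RKIP shRNA arrays. It rose by 0.84 (SE 0.10, adjusted p = 0.0023), all RKIP shRNA arrays being higher. TRAF3IP2-AS1, named for the interleukin 17 receptor adaptor Act1, fell by 0.56 (adjusted p = 0.0064).

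The remaining large changes lay beside genes whose products are less well described. CCDC18-AS1 is named for a coiled-coil protein gene. It read 6.999, 7.10 and 7.01 in the control arrays and 6.01, 5.68 and 5.93 in the RKIP shRNA arrays. It fell by 1.17 (SE 0.10, adjusted p = 0.00062), or 2.24-fold, and the groups were far apart. NHSL1 encodes a relative of the Nance-Horan syndrome protein that acts on cell migration. NHSL1-AS1 read 5.65, 5.57 and 5.57 in the control arrays and 4.498, 4.45 and 4.73 in the RKIP shRNA arrays. It fell by 1.04 (SE 0.09, adjusted p = 0.00069), with all 3 control arrays within a narrow range. PCED1B-AS1, named for a gene of the PC-esterase domain family, read 3.79, 3.57 and 4.05 in the control arrays and 5.24, 5.16 and 5.25 in the RKIP shRNA arrays. Each control array was dimmer than the table's median and each RKIP shRNA array brighter. It rose by 1.42 (SE 0.12, adjusted p = 0.00065), or 2.68-fold from a dim control level.

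**Figure D3:**
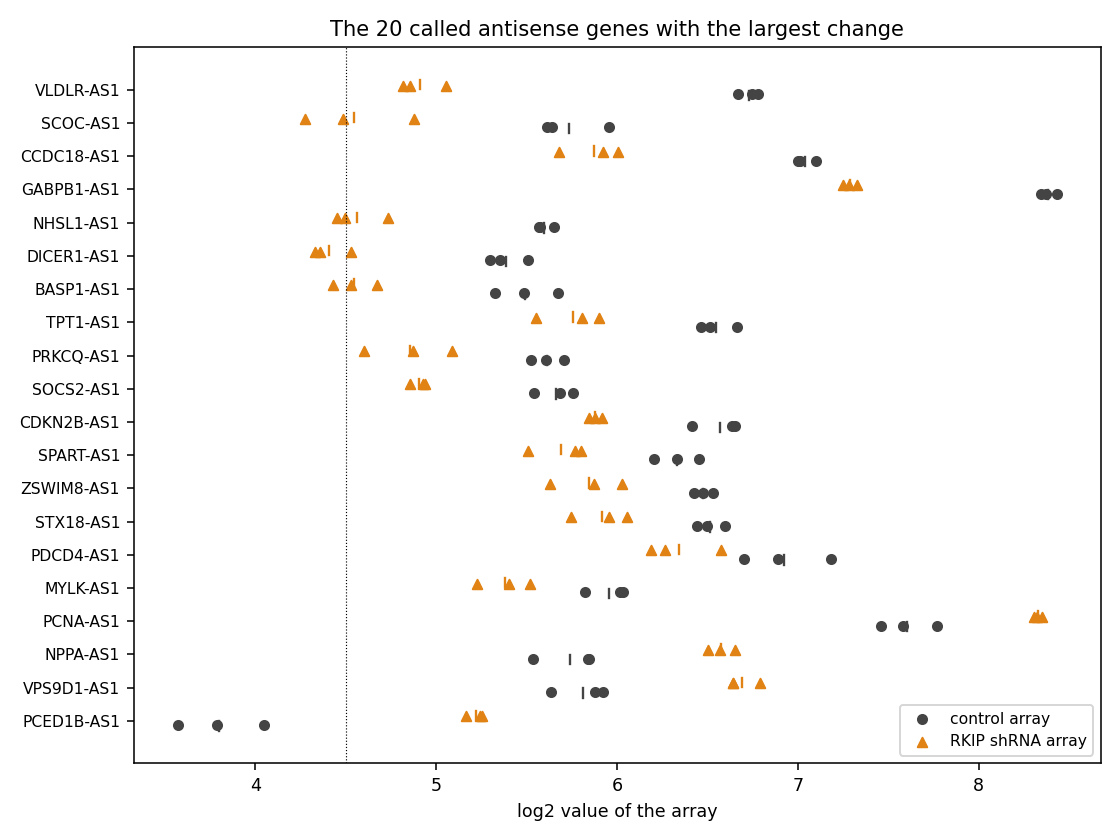
Log2 value of each array (x axis) for the 20 called antisense genes with the largest change; grey circles are the 3 control arrays, orange triangles the 3 RKIP shRNA arrays, short vertical ticks the group means and the dotted line the membership limit of 4.5, which applied to the 6-array mean. The groups do not overlap in any of these genes, and 4 of them, PCNA-AS1, NPPA-AS1, VPS9D1-AS1 and PCED1B-AS1, are higher in RKIP shRNA.

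The other 27 called genes changed by less. Of these, 20 fell. The falls of PSMD6-AS2, THAP9-AS1, FOXD2-AS1, ZMIZ1-AS1, AFF1-AS1 and FAM13A-AS1 ranged from -0.57 to -0.46. Those of ARHGAP5-AS1, PAXIP1-AS2, FRMD6-AS1, DDX11-AS1, GAS6-AS1, FBXL19-AS1 and WAC-AS1 ranged from -0.42 to -0.26. PSMD6 is a proteasome subunit gene, FOXD2 and AFF1 encode transcription regulators, and GAS6 encodes a ligand of TAM receptors. A second GAS6-AS1 probe fell by 0.82, more than the 0.28 of the brighter one. The 7 rises were in KDM4A-AS1 (0.56), TMPO-AS1 (0.50), ASMTL-AS1 (0.49), RNF213-AS1 (0.37), FGD5-AS1 (0.37), TSPOAP1-AS1 (0.28) and PXN-AS1 (0.27). Limma adjusted p values of these 7 lay between 0.014 and 0.046. GAS6-AS1, RNF213-AS1, TSPOAP1-AS1 and PXN-AS1 lost the call on leaving out any 1 of the 6 arrays, with adjusted p values of up to 0.12, 0.12, 0.14 and 0.094. ZMIZ1-AS1 kept its call only without RKIP shRNA replicate 3, ARHGAP5-AS1 only without RKIP shRNA replicate 1, FBXL19-AS1 only without control replicate 3, DDX11-AS1 and PSMA3-AS1 only without RKIP shRNA replicate 2, and WAC-AS1 only without RKIP shRNA replicate 3. The highest adjusted p of these 6 genes lay between 0.10 and 0.14. KDM4A-AS1 lost its call without RKIP shRNA replicate 3 or any control array (up to 0.079). FGD5-AS1 lost it without RKIP shRNA replicate 1 or control replicate 3 (up to 0.053), and TMPO-AS1 without RKIP shRNA replicate 2 (0.057). ZBED3-AS1, singled out after its values were seen, had the largest change without a call: it read 5.27, 5.61 and 5.17 in the control arrays and 4.04, 5.15 and 4.61 in the RKIP shRNA arrays. Its groups were apart, but the RKIP shRNA arrays were spread over more than 1 log2 unit, and the change of -0.75 had an adjusted p of 0.098.

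The position of the start relative to the partner set 24 of the genes apart as back-to-back pairs, in which the start windows share a run of at least 20 bases on opposite strands. Of these 24 genes, 8 fell and 16 did not pass the test, a called share of 33.3% against 31.7% of all genes at 4.5 or more. Those that fell were DICER1-AS1, TPT1-AS1, STX18-AS1, WT1-AS, RBM26-AS1, AFF1-AS1, DDX11-AS1 and WAC-AS1, and the median log2 change over all 24 was -0.26. DICER1-AS1 is among the genes that entered through 1 group, and the calls of STX18-AS1 and RBM26-AS1 rest on 1 of their probes. Of 97 genes whose span overlaps the partner's without such a run, 15 fell and 7 rose, a called share of 22.7%, with a median of -0.04. This class was set by the spans and start windows, and the strand was not required to differ. Of 8 genes whose span does not overlap the partner's, 5 fell and 1 rose, too few genes to read a share from. Of 43 genes without both start windows 8 fell and 3 rose, and the position was unknown for 4 others, of which none was called. The difference between these classes was not tested. Where spans overlap, no source used here states whether a probe reads 1 strand only.

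In most pairs with a call, the antisense gene or its coding partner was called without the other. Of the 114 measured partners, 16 fell and 10 rose, and their median log2 change was 0.002. The called share was 22.8%, against 20.2% of all genes and 32.9% of protein-coding genes at 4.5 or more. The partners were not chosen by level. Their median 6-array mean was 6.49, against 5.08 for all genes and 7.25 for those protein-coding genes. Both the antisense gene and its partner were called in 9 pairs, the antisense gene only in 23, the partner only in 17 and neither in 65. Of the antisense genes in these 114 pairs 28.1% were called, beside the 22.8% of partners. At such shares calls of 1 gene alone would be the more frequent ones in unrelated pairs too. The log2 changes had the same sign in 63 pairs and opposite signs in 51. Across the 114 pairs the changes correlated at r = 0.17 (Pearson) and 0.16 (Spearman), given as a description, since the points come from the same 6 arrays.

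**Figure D4:**
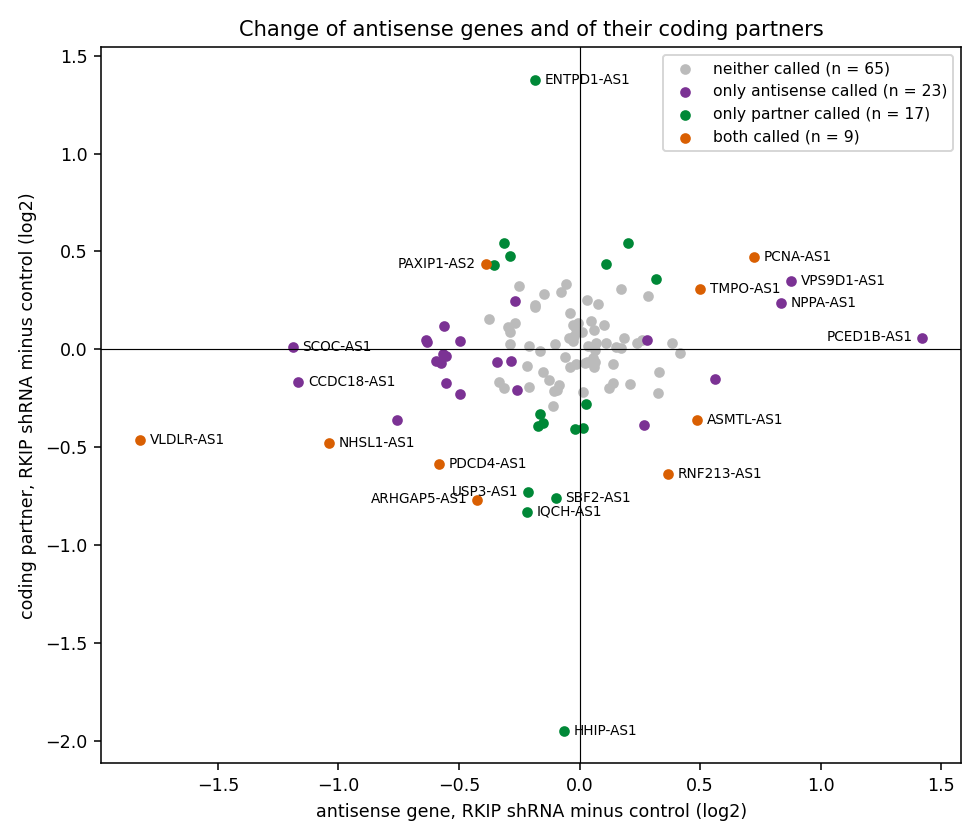
Log2 change of the antisense gene (x axis) against that of its coding partner (y axis), RKIP shRNA minus control, for the 114 pairs; orange marks pairs with both called (9), purple the antisense gene only (23), green the partner only (17) and grey neither (65). Points spread along both axes, with HHIP-AS1 at the foot of the plot, ENTPD1-AS1 at its top, VLDLR-AS1 at the far left and PCED1B-AS1 at the far right.

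In 6 of the 9 pairs with both called, antisense gene and partner went the same way. VLDLR read 9.50, 9.67 and 9.68 in the control arrays and 9.18, 9.12 and 9.15 in the RKIP shRNA arrays and was lower in every RKIP shRNA array. It fell by 0.47 (SE 0.08, limma adjusted p = 0.0061), beside the 1.82 of VLDLR-AS1. The difference between the antisense gene and its partner within each array, VLDLR-AS1 minus VLDLR, was -2.75, -2.89 and -3.01 in the control arrays and -4.33, -4.06 and -4.33 in the RKIP shRNA arrays. These differences did not overlap between the groups, as in 54 of the 114 pairs, and changed by -1.36. An exact two-sided permutation test gave p = 0.10 for this and every other pair whose differences did not overlap, the smallest value that 3 arrays against 3 allow. NHSL1 fell by 0.48 (adjusted p = 0.0036), PDCD4 by 0.59 (adjusted p = 0.0076) and ARHGAP5 by 0.77 (adjusted p = 0.004). PCNA read 10.67, 10.60 and 10.62 in the control arrays and 11.07, 11.04 and 11.19 in the RKIP shRNA arrays, higher in every RKIP shRNA array. It rose by 0.47 (adjusted p = 0.0046) beside 0.72 for PCNA-AS1. TMPO, which encodes lamina-associated polypeptides, rose by 0.31 (adjusted p = 0.015) beside 0.50 for TMPO-AS1.

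The other 3 of these pairs went opposite ways. RNF213 encodes a large ubiquitin ligase. RNF213-AS1 read 4.54, 4.61 and 4.38 in the control arrays and 4.79, 5.04 and 4.80 in the RKIP shRNA arrays, and RNF213 read 7.85, 7.83 and 7.79 in the control arrays and 7.29, 7.11 and 7.17 in the RKIP shRNA arrays. The antisense gene was higher and the partner lower in every RKIP shRNA array. RNF213-AS1 rose by 0.37 (adjusted p = 0.042) and RNF213 fell by 0.64 (adjusted p = 0.0017). PAXIP1, a chromatin protein of DNA repair, shows the reverse. PAXIP1-AS2 read 7.36, 7.52 and 7.51 in the control arrays and 6.92, 7.13 and 7.17 in the RKIP shRNA arrays, and PAXIP1 read 8.23, 8.16 and 8.29 in the control arrays and 8.67, 8.66 and 8.65 in the RKIP shRNA arrays. The antisense gene fell by 0.39 (adjusted p = 0.026) and the partner rose by 0.44 (adjusted p = 0.0047). ASMTL-AS1 rose by 0.49 (adjusted p = 0.032), while ASMTL, an acetylserotonin methyltransferase-like gene, fell by 0.36 (adjusted p = 0.033). A second ASMTL-AS1 probe rose by 0.57. The call of RNF213-AS1 was lost on leaving out any 1 array (adjusted p up to 0.12). That of PAXIP1-AS2 was lost without RKIP shRNA replicates 1 or 2 or control replicates 2 or 3 (up to 0.087), and that of ASMTL-AS1 without replicates 1 or 2 of either group (up to 0.095).

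In other pairs the antisense gene changed and no change of the partner passed the test. PCED1B read 4.30, 4.05 and 4.09 in the control arrays and 4.13, 4.23 and 4.26 in the RKIP shRNA arrays, with overlapping groups. Its change was 0.06 (95% interval -0.15 to 0.27) beside the rise of 1.42 in PCED1B-AS1, which was included only through its RKIP shRNA arrays. SCOC had a change of 0.01 (95% interval -0.21 to 0.24) beside the fall of 1.19 in SCOC-AS1. CCDC18 had one of -0.17 (interval -0.36 to 0.02) and STX18 one of -0.06 (interval -0.22 to 0.10). The groups of CCDC18 did not overlap, while those of SCOC and STX18 did. In each of these 4 pairs the within-array difference between antisense gene and partner did not overlap between the groups. It changed by 1.36 for PCED1B-AS1, -1.20 for SCOC-AS1, -1.0 for CCDC18-AS1 and -0.54 for STX18-AS1. Differences did not overlap in 54 of all 114 pairs. Among pairs with a called antisense gene that held for 7 of the 10 rises and 19 of the 22 falls. The 4 pairs were picked with only the antisense gene called, so this separation is a description. Over all 23 such pairs the partner changes ran from -0.39 (PXN) to 0.35 (VPS9D1). SOCS2 fell by 0.36 beside the fall of SOCS2-AS1, without overlap, and missed the threshold (limma adjusted p = 0.058). PXN went the other way from PXN-AS1, which rose, and its groups overlapped (adjusted p = 0.11).

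In 17 pairs only the partner was called. HHIP binds hedgehog ligands and restrains their signal. It read 5.65, 5.52 and 5.41 in the control arrays and 3.43, 3.98 and 3.32 in the RKIP shRNA arrays, and fell by 1.95 (SE 0.17, adjusted p = 0.0007), or 3.86-fold, to values below the median of all rows. HHIP-AS1, whose start region is shared with HHIP, read 4.97, 5.00 and 4.86 in the control arrays and 4.90, 4.88 and 4.85 in the RKIP shRNA arrays. Its groups overlapped and its change was -0.07 (95% interval -0.23 to 0.10). The difference HHIP-AS1 minus HHIP was -0.68, -0.52 and -0.55 in the control arrays and 1.47, 0.90 and 1.52 in the RKIP shRNA arrays and changed by 1.88, with no overlap between the groups. Only the change of such a difference can be read, since probes of different genes have no common scale. ENTPD1 encodes CD39, an enzyme that degrades extracellular ATP. It read 4.14, 4.01 and 3.98 in the control arrays and 5.53, 5.33 and 5.41 in the RKIP shRNA arrays, and rose by 1.38 (SE 0.08, adjusted p = 0.00023), or 2.60-fold from a dim control mean of 4.05 ± 0.08. ENTPD1-AS1 read 4.86, 5.06 and 4.79 in the control arrays and 4.74, 4.62 and 4.80 in the RKIP shRNA arrays. Its groups overlapped slightly and its change was -0.18 (95% interval -0.41 to 0.04), with a change of the difference of -1.56. The HHIP and ENTPD1 pairs were picked with only the partner called, so the separation of their differences is a description.

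**Figure D5:**
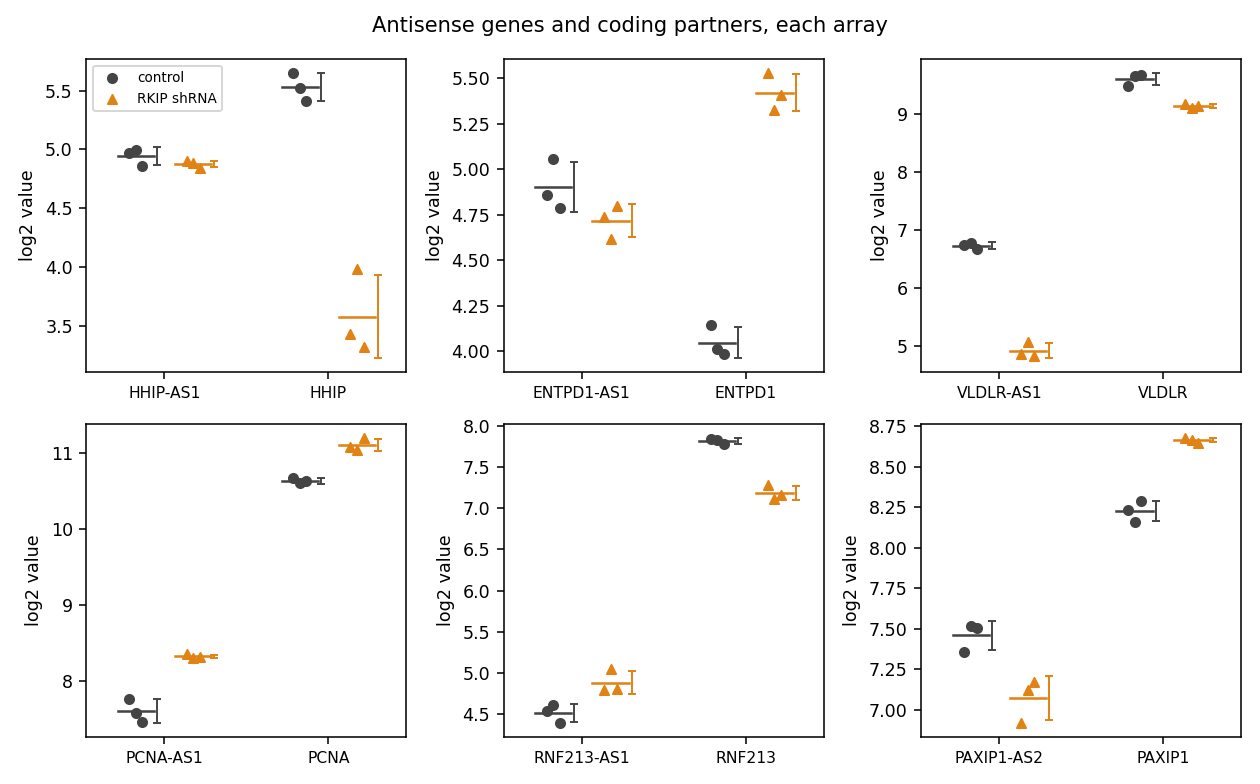
Log2 values of 6 antisense genes and their coding partners, 1 panel per pair with its own axis; grey circles are control arrays, orange triangles RKIP shRNA arrays, horizontal lines group means and bars 1 SD to either side (n = 3). HHIP and ENTPD1 change by -1.95 and 1.38 and their antisense genes by -0.07 and -0.18, VLDLR and PCNA move with theirs, and RNF213 and PAXIP1 move opposite to theirs.

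The other 15 partners called without their antisense gene changed by less than 1 log2 unit. IQCH, SBF2 and USP3, the last a histone deubiquitinase gene, fell by 0.83, 0.76 and 0.73. ZNF436, VPS13A, TAPT1, BABAM2, PAN3 and JMJD1C also fell, by 0.28 to 0.41. PAN3 is a subunit of a poly(A) nuclease and JMJD1C a jumonji-family chromatin gene. MRPL20, MIF, THAP7, STARD7, VAC14 and TMEM147 rose, by 0.36 to 0.54, where MIF is a cytokine of macrophages and MRPL20 a mitochondrial ribosomal protein. The antisense genes of these 15 partners had changes from -0.36 (MIF-AS1) to 0.32 (MRPL20-AS1), and none passed the test.

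Among the 15 back-to-back pairs with a measured partner, both were called in none, against 9 of all 114 pairs. Over all 114 pairs 28.1% of the antisense genes and 22.8% of the partners were called. The 15 pairs are too few to read a difference from. The antisense gene fell in 4 of them, STX18-AS1, WT1-AS, RBM26-AS1 and WAC-AS1. Their partners had changes of -0.06, 0.12, 0.04 and -0.21, of which none passed the test. HHIP was the only called partner in this class.

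Genes listed for RNA decay, early transcription termination and double-stranded RNA rose in part, and the other measured genes of the 4 lists did not pass the test. The lists are broad, and a listed gene need not act on antisense transcripts. Of 13 listed genes of the nuclear RNA exosome 12 were measured and 1 rose, EXOSC4, a core subunit, by 0.69 (limma adjusted p = 0.0076). Of 14 adaptors and cap-bound decay factors 9 were measured and 3 rose: SRRT, which encodes ARS2, by 0.59, the adaptor ZC3H18 by 0.53 and the noncanonical poly(A) polymerase TENT4B by 0.45. Of 24 genes of early transcription termination 16 were measured and 6 rose, among them the Integrator subunit INTS5 by 0.54, WDR82, a partner in terminating short transcripts, by 0.52, and RPRD1B, which binds the polymerase tail, by 0.35. Of 18 genes listed under double-stranded RNA 5 were measured and 3 rose: UPF1 by 0.65, the helicase DHX9 by 0.54 and DGCR8, a microRNA processing factor, by 0.48. The label of that list is loose, since UPF1 is not specific to double-stranded RNA. The median log2 changes of the 4 lists, in that order, were 0.08, 0.14, 0.09 and 0.48, against 0.02 over all genes. Over protein-coding genes at 4.5 or more it was 0.03. No measured gene of these lists had a 6-array mean below the table's median, so the lists are not matched to all genes for brightness. The 0.48 rests on 5 genes. The share called higher was 10.0% over all genes and 17.4% over protein-coding genes at 4.5 or more. The part of these genes in the antisense changes was not tested.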

How the data were processed

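Total RNA of 6 THP-1 samples was measured on expression arrays. The deposited table held log2 values in 53617 rows, 1 column per array, and the scale was read from their range (0.72 to 14.0). How the authors summarised, background-corrected and normalised the arrays, and with which genome build, is not given in the sources used here, and neither is the strand that probes read. The array annotation gave 1 symbol to 16098 rows and left 37519 unnamed here. Symbols, gene type and gene positions were matched to RefSeq (GRCh38.p14). Spans were compared within RefSeq only.

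Antisense genes, gene lists and tests were chosen with earlier results of these data known. All 14884 genes were fitted (lmFit and eBayes, limma 3.58.1, R 4.3.3) as RKIP shRNA minus control, unpaired, 3 arrays against 3, and calls were made at p under 0.05 after Benjamini-Hochberg adjustment. Single within-array differences were tested by exact permutation (scipy 1.17.1). Genes named were the called antisense genes, antisense genes of called partners, their partners, the 5 brightest, the 2 nearest to the limit on either side, PEBP1, and up to 4 called genes per decay or termination list. Values in every array were given for the 20 largest called changes. Cell type markers and ZBED3-AS1 were named outside this rule. Alternatives covered normalisation, centring, prior, array weights, a replicate block, dim rows, all rows, probe averaging, an ordinary t statistic, thresholds and leaving out each array. The scanner files were not used here, and no array date or batch is in the labels.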

Additional observations from a re-analysis of the deposited data

Results flagged for a closer look

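Antisense genes with a 6-array mean below 4.5 carried calls too, in values that the comparison above did not use. Of 313 such genes 5 were called higher and 6 lower (limma, adjusted p under 0.05 over all genes), a share of 3.51%, against 4.4% of all 6256 genes below 4.5 and 20.2% of all genes. The lower ones were COCH-AS1 (-0.69), EPCIP-AS1 (-0.69), RASSF8-AS1 (-0.50), CPB2-AS1 (-0.48), ARHGEF3-AS1 (-0.32) and PTPRG-AS1 (-0.29). The higher ones were GALNT9-AS1 (0.52), JAZF1-AS1 (0.52), MTOR-AS1 (0.50), CFAP44-AS1 (0.41) and EFCAB14-AS1 (0.33), each below the median of all rows in both groups. Groups of 3 arrays are too small for a check of single outlying arrays.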

How the results depend on the processing

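Of 176 antisense genes, 11 were called higher and 36 lower. The higher count was 7 with the replicate block, 4 over all rows of the table, 6 with the ordinary t statistic, 4 at an adjusted p under 0.01, and 6 to 9 on leaving out 1 array. The lower count stayed within 1.5 times its value under every alternative, as did the count of partners called higher and of pairs with the same sign. Partners called lower numbered 16, but 10 at an adjusted p under 0.01 and 9 among the partners of the 116 antisense genes at a mean of 5 or more. The median log2 change moved from -0.06 to -0.16 for those 116. The cause of these shifts was not tested, apart from the fewer genes or higher bar that 2 of these settings impose by construction.

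Replicate numbers gave no pairing: deviations of same-numbered arrays correlated at 0.019, 0.0034 and -0.016, and not every array correlated best with its own number. With the number as a block, 7 antisense genes were called higher and 30 lower.

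Signs turned only for changes that were not called, near 0. With quantile normalisation THAP9 was at 0.02, ZNF436-AS1 at 0.03 and the difference MRPL20-AS1 minus MRPL20 at 0.008. With array weights VPS13A-AS1 was at -0.002 and ZNF436-AS1 at 0.009. On leaving out 1 array the ranges that crossed 0 were EPB41L4A -0.102 to 0.043, MYLK -0.136 to 0.017, RBM26 -0.030 to 0.088, SCOC -0.081 to 0.062, SPART -0.004 to 0.088, THAP9 -0.063 to 0.009, TSPOAP1 -0.009 to 0.150, VPS13A-AS1 -0.109 to 0.082, ZNF436-AS1 -0.055 to 0.024 and ZSWIM8 -0.023 to 0.118. The number of arrays and the brightness of a probe over background limit what could be called.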
